A study of Rattus norvegicus with 2 samples.

Results

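Nucleolar and heterogeneous nuclear ribonucleoprotein (hnRNP) RNA-binding proteins are described here in the duodenal mucosa of 2 rats, from 29 of the 8799 probe sets of an Affymetrix rat expression array, which measures each transcript with sets of short oligonucleotides. The members were taken by annotation as every probe set assigned to Ncl, Npm1, Ddx39b, Rbfox2 or a symbol starting with Hnrnp, which gave 14 genes. The gene names in this list were chosen from measured ratios of these same arrays (Rbfox2, for example, was known to be among the lowest), so the ratios below are a description and support nothing by themselves. Of the 29 probe sets, 25 carried 1 symbol and represented 12 genes, against 4736 genes measured this way on the array. The other 4 carried Npm1 or Hnrnpk together with a pseudogene symbol, and their signal cannot be assigned to 1 gene.

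The study compared a male Wistar rat, 15 weeks old, held for 2 weeks in an immobilization cage with an equally old male Wistar control rat kept over the same 2 weeks in a metabolic cage. One array was run per animal (n = 1 in each group), and pooling of animals is not mentioned in the labels. The spread between rats is therefore unknown, the differences below have no replicate check, and p-values cannot be given. The labels call the material epithelial cells, whereas the design text says mucosa. All 18 enterocyte markers on the array were above the signal floor in both rats, and of 11 neuron and glia markers none was above it in both. Markers of other tissue also passed it in both rats, 19 of 20 for exocrine pancreas, 7 of 13 for leukocytes and 5 of 8 for smooth muscle.

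Signals are in the authors' array units on a linear scale. The values of the immobilized rat were multiplied by 1.016, which set the median log2 ratio of the probe sets to 0, and the 50th percentile of all signals, 39.9, served as a floor. A log2 ratio of immobilized over control is given only where both arrays exceeded the floor, and a ratio of at least 2-fold was counted. Signals of different probe sets depend on their oligonucleotides and were not compared with each other, so the genes are not ordered by level. Where a gene had several probe sets above the floor, their log2 ratios scattered with an SD of 0.31 (696 genes). This measures disagreement between probe sets on the same 2 arrays. It leaves out any error that the probe sets of a gene share, and says nothing of animals. In bulk mucosa, fewer cells of a type and less RNA per cell cannot be told apart.

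As background, Ncl (nucleolin) and Npm1 (nucleophosmin) are abundant proteins of the nucleolus, where ribosomal RNA is made and assembled with ribosomal proteins, and dividing or growing cells contain much of both. The hnRNP proteins coat nascent transcripts in the nucleus and take part in splicing, export and stability of mRNA. Ddx39b is a DEAD-box helicase of spliceosome assembly and mRNA export, and Rbfox2 is a sequence-specific regulator of alternative splicing. In the intestine, cells divide in the crypts and differentiate as they move up the villus.

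RefSeq promoter sequences (GRCr8) were available for 13 of the 14 genes, the missing entry being Rbfox2, and the 250 bases before the annotated start were searched on both strands for the E-box CACGTG (bound by Myc-family factors), the CCAAT box, the GC box GGGCGG (bound by Sp1), the ETS-type motif CCGGAAG and the TATA box TATAAA. The windows of Ncl and Ddx39b are shown because these 2 genes had the highest ratios among genes with single-symbol probe sets and their windows overlap no annotated gene, whereas those of Npm1 and Hnrnpa1 overlap annotated genes, their own included. Both are on the minus strand, 5′ to 3′ in the direction of transcription, Ncl at chr9:94456084-94456333 and Ddx39b at chr20:3589652-3589901, with matches to any of the motifs in capitals.
Ncl: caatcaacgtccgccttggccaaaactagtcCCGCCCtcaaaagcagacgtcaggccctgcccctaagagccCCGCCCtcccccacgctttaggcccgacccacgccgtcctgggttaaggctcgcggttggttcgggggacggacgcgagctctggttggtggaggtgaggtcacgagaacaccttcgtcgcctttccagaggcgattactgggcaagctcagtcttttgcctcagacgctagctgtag
Ddx39b: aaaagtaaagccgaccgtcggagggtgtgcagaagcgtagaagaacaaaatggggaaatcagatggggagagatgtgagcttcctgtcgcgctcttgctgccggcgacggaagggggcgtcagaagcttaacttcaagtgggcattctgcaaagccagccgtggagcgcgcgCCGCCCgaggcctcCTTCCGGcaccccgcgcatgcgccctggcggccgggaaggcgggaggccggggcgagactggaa
The Ncl window held GGGCGG at 2 places and the Ddx39b window held GGGCGG and CCGGAAG once each, all on the reverse strand. Over the 13 genes, GGGCGG was found for 10, CCAAT for 7, CCGGAAG for 3, TATAAA for 3 and CACGTG for 2 (Hnrnpd and Hnrnpm). A gene counted if any of its entries held the motif, and 1 gene (Hnrnpf) had several entries. Per entry the counts were 11, 8, 5, 3 and 2 of 15 in that order. Among 4206 promoter entries of genes on the array, the shares with each motif were 52.5%, 35.4%, 10.2%, 10.8% and 7.66% in the same order. In the member windows, 1 pair of different motifs shared a base. The Hnrnpk window, which held none of the motifs, was chr17:6270990-6271239. It lies inside the annotated gene, which starts at 6269302, so it need not be the promoter. Windows of some other members also overlapped their own gene. These are letter matches, and nothing follows from them about the factors.

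The nucleolar probe sets above the floor, 1 for Ncl and 2 that Npm1 shares with a pseudogene, had higher signals in the immobilized rat. For Ncl, the probe set M55015cds_s_at read 266 in the control rat and 435 in the immobilized rat, a log2 ratio of 0.71 or 1.64-fold higher. Its ratio ranked 131 from the highest among 2524 genes above the floor on both arrays. The other Ncl probe set, M55017exon_s_at, lay below the floor on both arrays (22.7 and 17.7) and carries no ratio. Among the 430 genes with a mean signal of 200 to 400, as for Ncl, the log2 ratios had an SD of 0.40 and the central 90% lay between -0.56 and 0.81, so the Ncl value is inside that spread.

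Npm1, a nucleolar chaperone that moves between nucleolus and cytoplasm, was represented only by probe sets annotated to Npm1 and the pseudogene Npm1-ps9 together. Probe set J04943_at read 281 in the control rat and 625 in the immobilized rat, 2.22-fold higher with a log2 ratio of 1.15. Probe set J03969_at read 262 and 356, which is 1.36-fold higher with a log2 ratio of 0.44. Both differed in the same direction, but by unequal amounts. Their gap of 0.71 was wider than the 90th percentile of 0.64 for the 543 genes with 2 probe sets above the floor, whose median gap was 0.24. The RefSeq annotation names 20 pseudogenes of Npm1 and 5 of Ncl, so part of these signals could come from related transcripts, which was not tested.

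**Figure D1:**
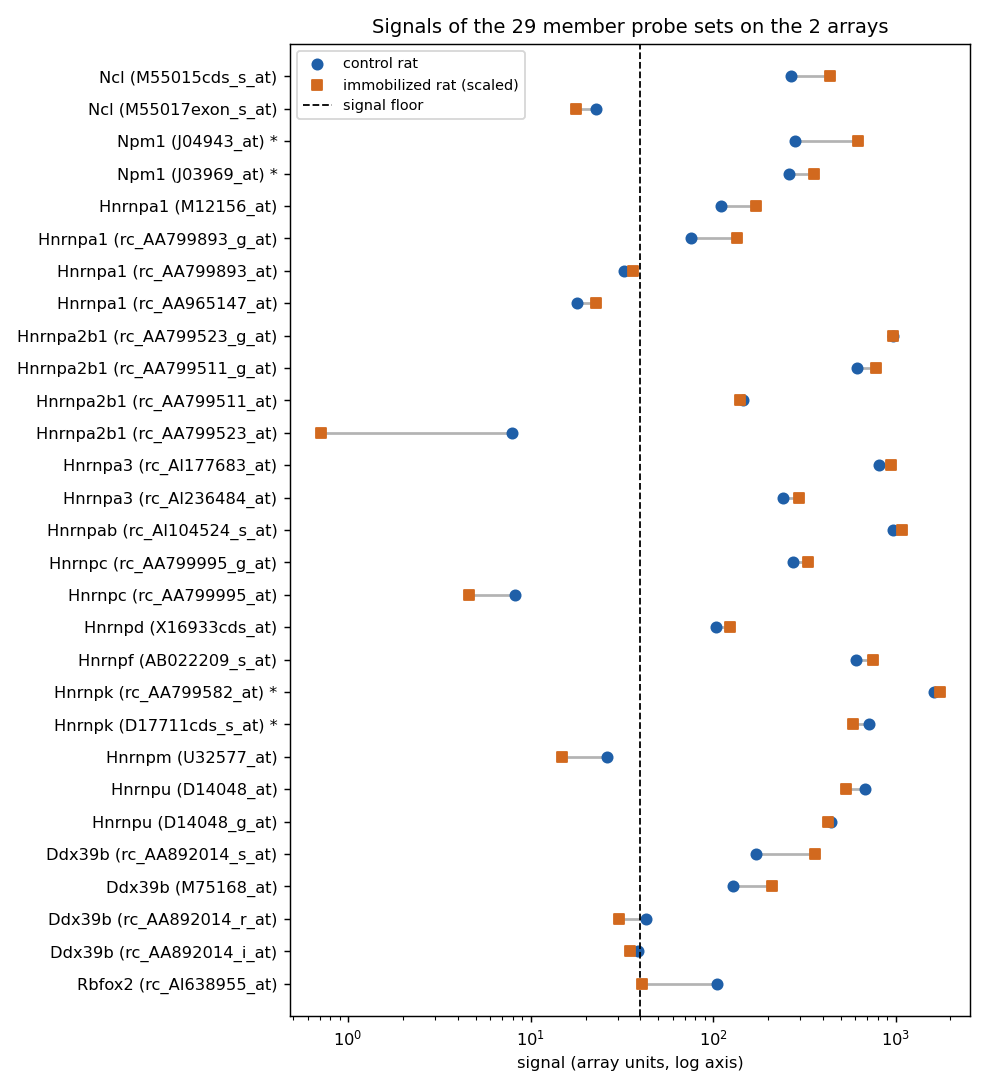
Signal of each of the 29 member probe sets (horizontal log axis, array units) in the control rat (blue circles) and in the immobilized rat after scaling (orange squares), 1 array each, with the floor of 39.9 as a dashed line and an asterisk on the 4 probe sets that share their annotation with a pseudogene. The orange square lies well to the right of the blue circle for Ncl at 435 against 266, for Npm1, for Hnrnpa1 and for Ddx39b above the floor, and to the left for Rbfox2, whose square touches the floor.

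Of the hnRNP genes with a ratio, Hnrnpa1 alone reached 1.5-fold. Hnrnpa1 encodes the hnRNP A1 protein, which shuttles between nucleus and cytoplasm and represses splice site use. Its probe set M12156_at read 111 in the control rat and 172 in the immobilized rat, 1.55-fold higher with a log2 ratio of 0.63. A further probe set, rc_AA799893_g_at, read 75.6 and 135, 1.79-fold higher with a log2 ratio of 0.84. The remaining 2 Hnrnpa1 probe sets were below the floor on both arrays, rc_AA799893_at at 32.4 and 36.6 and rc_AA965147_at at 18 and 23. RefSeq names 51 pseudogenes of Hnrnpa1, the most of any member, and whether the probes also bind their transcripts was not tested.

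The relatives of Hnrnpa1 in the A/B group lay closer to 0. Hnrnpa2b1, whose products act in splicing and in mRNA transport, had 3 of its 4 probe sets above the floor. One read 971 in the control rat and 967 in the immobilized rat (log2 ratio -0.01), another 615 and 778 (0.34) and the third 146 and 140 (-0.06). These probe sets did not share a direction, and their values stayed within 1.5-fold of equality. The sign of the gene value turned under loess scaling, under a 70th percentile floor and with probe sets averaged. Hnrnpa3 was higher at both of its probe sets, with 813 and 949 (1.17-fold) at the brighter and 243 and 297 (1.22-fold) at the other. Hnrnpab, a related protein that binds RNA and single-stranded DNA, read 965 and 1083, which is 1.12-fold higher.

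Among the other hnRNP genes, small higher values were again the more common. Hnrnpc, which packages nascent transcripts and binds uridine tracts, read 275 and 330 at its probe set above the floor (1.20-fold higher), and its second probe set was below the floor (8.2 and 4.6). Hnrnpd, the AU-rich element binding protein AUF1, read 104 and 124 (1.19-fold higher). Hnrnpf, which binds G-rich tracts near splice sites, read 608 and 755 (1.24-fold higher). Each of these values was within 1.5-fold.

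Hnrnpu ran the other way. It encodes the scaffold attachment factor A, an RNA- and DNA-binding protein of the nuclear matrix, and its probe sets read 680 and 537 (1.27-fold lower, log2 ratio -0.34) and 446 and 428 (1.04-fold lower, -0.06). For Hnrnpk, which binds C-rich RNA and DNA, both probe sets shared their annotation with the pseudogene Hnrnpk-ps1. D17711cds_s_at was also annotated to a further symbol, LOC100359916. Probe set rc_AA799582_at read 1627 and 1742 (log2 ratio 0.10), and D17711cds_s_at read 713 and 588 (-0.28), so they had opposite signs. Hnrnpm, a splicing regulator, was not above the floor in either rat (26.3 and 14.8) and has no ratio.

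Over the hnRNP family, 15 of 20 probe sets passed the floor in both rats, and 10 of these had a ratio above 0 and 5 below. Over all probe sets 50% were above 0. None of the 15 reached 2-fold, where 2.34% of all probe sets were at least 2-fold higher and 0.853% at least 2-fold lower, and the 2 Hnrnpa1 probe sets were the ones at 1.5-fold or more. At the level of genes with single-symbol probe sets, 8 of 9 were above the floor, 6 of these higher and 2 lower (49.4% of all genes were higher), with a median log2 ratio of 0.24.

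Ddx39b, also known as UAP56, had the highest ratio of the member genes with single-symbol probe sets. Probe set rc_AA892014_s_at read 172 in the control rat and 363 in the immobilized rat, 2.10-fold higher with a log2 ratio of 1.07. Probe set M75168_at read 128 and 211, 1.64-fold higher with a log2 ratio of 0.72. The mean of the 2 log2 ratios was 0.89, below 2-fold. A further pair of probe sets from the same transcript sequence as the first did not show the higher signal. Of these, rc_AA892014_i_at was below the floor on both arrays (38.7 and 35.3). The other, rc_AA892014_r_at, exceeded it in the control rat alone (43.1 and 30.4), at least 1.08-fold lower. The gene value ranked 42 from the highest of the 2524 genes.

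Rbfox2 was the member with the lowest ratio. Its single probe set, rc_AI638955_at, read 105 in the control rat and 40.5 in the immobilized rat, 2.59-fold lower with a log2 ratio of -1.37, and it ranked 6 from the lowest among the 2524 genes. The immobilized signal was just above the floor of 39.9, so the ratio rests on 1 probe set at the edge of what was measured. Under loess scaling the immobilized signal was below the floor and gave a bound, at least 2.62-fold lower, and under a 70th percentile floor neither signal counted. For the 706 genes with a mean signal under 100, the central 90% of log2 ratios lay between -0.62 and 0.73. Of the 11 neuron and glia markers on the array, Nefl alone passed the floor, in the control rat (43.6 and 14.4, at least 1.09-fold lower), and the list summed to 178 and 167. Their part in the Rbfox2 ratio was not tested.

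**Figure D2:**
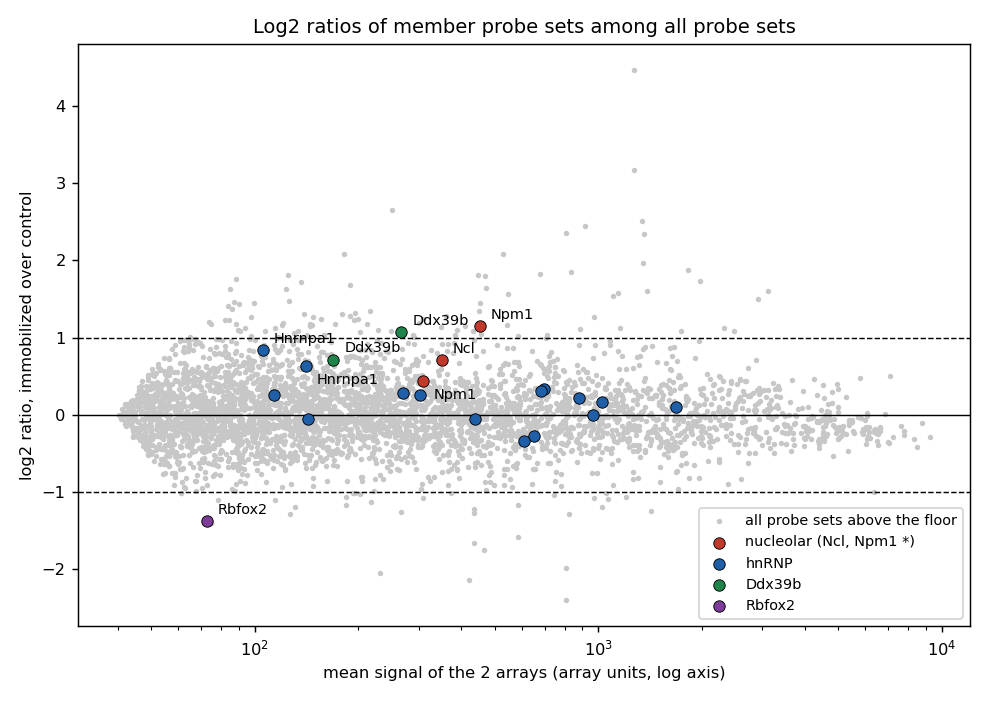
Log2 ratio of immobilized over control (vertical axis) against the mean signal of the 2 arrays (horizontal log axis, array units) for the probe sets above the floor on both arrays in grey, with the 21 member probe sets in colour and dashed lines at 2-fold. Most hnRNP points (blue) lie near 0, an Npm1 point at 1.15 and a Ddx39b point at 1.07 lie above the upper line, and Rbfox2 lies below the lower line at -1.37 near the dim end.

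Counted over all members, 1 of the 11 genes that passed the floor in both rats was at least 2-fold higher (Ddx39b) and 1 at least 2-fold lower (Rbfox2), where 2.02% and 0.674% of all 2524 genes were. At 1.5-fold the members numbered 3 higher (Ncl, Hnrnpa1 and Ddx39b) and 1 lower (Rbfox2), against 8.36% and 4.87% of all genes. A ratio above 0 was found for 8 of the 11 genes and for 49.4% of all genes. Their log2 ratios had a median of 0.26, against -0.01 over all genes. Since the gene names were chosen with these ratios known, nothing is read from these counts.

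By probe set, 21 of 29 were above the floor on both arrays, 1 on the control array alone and 7 on neither. Of the 21, 15 had a ratio above 0 and 6 below, while 2052 of all 4105 probe sets (50%) were above 0. At 2-fold, 2 were higher (J04943_at of Npm1 and rc_AA892014_s_at of Ddx39b) and 1 lower (Rbfox2), where 2.34% and 0.853% of all probe sets were. The ratios of 14 of the 21 lay within 1.5-fold. The median log2 ratio of the 21 was 0.26.

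Other genes of the nucleolus and of ribosome assembly, from a list of 126 names set up with the earlier account of these data known, were mostly higher, 11 of the 12 measured on both arrays, and their median log2 ratio was 0.36. Polr1d, a subunit shared by RNA polymerases I and III, read 131 and 294 (2.25-fold higher). Dkc1, the pseudouridine synthase dyskerin, read 74.2 and 139 (1.88-fold higher, log2 ratio 0.91), and its other probe set gave 0.62. Nolc1, a nucleolar phosphoprotein that binds box C/D and H/ACA particles, was 1.48-fold higher. The exonuclease gene Xrn2 was the 1 below 0, at -0.03. Another 8 listed genes on the array were below the floor in both rats, and a 70th percentile floor left 1 gene of the list. Over all genes, to be read beside this list and those that follow, 49.4% were above 0, with a median of -0.01.

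Regulators of alternative splicing outside the members were higher for 7 of 8 genes, with a median of 0.32. Rbm39 read 89.4 and 201 (2.25-fold higher), Sfpq, a paraspeckle protein, read 85.5 and 168 (1.96-fold higher, log2 ratios of 0.70 and 0.97 at its 2 probe sets), and Zranb2 was 1.37-fold higher. Khdrbs1 was 1.10-fold lower. Rbpms was above the floor in the control rat alone (59.1 and 39.3), at least 1.48-fold lower, and Ybx1 crossed the floor in the immobilized rat alone (35.5 and 41.4), at least 1.04-fold higher.

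Of the genes of mRNA export, nuclear pores and helicases, 12 of 18 were higher, with a median of 0.20. The cap-binding subunit Ncbp2 read 40.8 and 76.5 (1.88-fold higher), the pore protein Nup210 52.9 and 95.3 (1.80-fold) and the Ran import factor Nutf2 158 and 264 (1.68-fold). In the other direction lay the translation helicase Eif4a2, 1.55-fold lower from 1339 to 864, Nup50 at 1.24-fold lower, although its other probe set gave 0.41 on the log2 scale, and Ranbp3 at 1.16-fold lower. The nuclear pore gene Nup107 exceeded the floor in the immobilized rat alone (23.5 and 67.9), at least 1.7-fold higher.

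Spliceosome components and SR proteins, the serine- and arginine-rich splicing factors, stood at 9 higher and 8 lower of 17, with a median of 0.08. Sart3 (1.57-fold), Ddx46 (1.46-fold, log2 ratio 0.55, but 0.18 at its other probe set) and the SR protein kinase Srpk2 (1.34-fold) were the highest. Cdc5l (1.32-fold lower), the kinase Clk3 (1.21-fold lower) and Eftud2 (1.14-fold lower) were the lowest. Ddx42 exceeded the floor in the immobilized rat alone (18.4 and 53.0), at least 1.33-fold higher.

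Of the hnRNP genes known by other symbols, 4 were measured, 2 higher and 2 lower, with a median of -0.06 that turned positive with probe sets averaged or counted singly. Rbmx (hnRNP G) was 1.18-fold higher and Ptbp3 1.02-fold higher. Pcbp4, a KH-domain protein, was 1.44-fold lower. Ptbp1 (hnRNP I) was 1.12-fold lower at its brightest probe set, with up to 0.91 on the log2 scale at another.

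**Figure D3:**
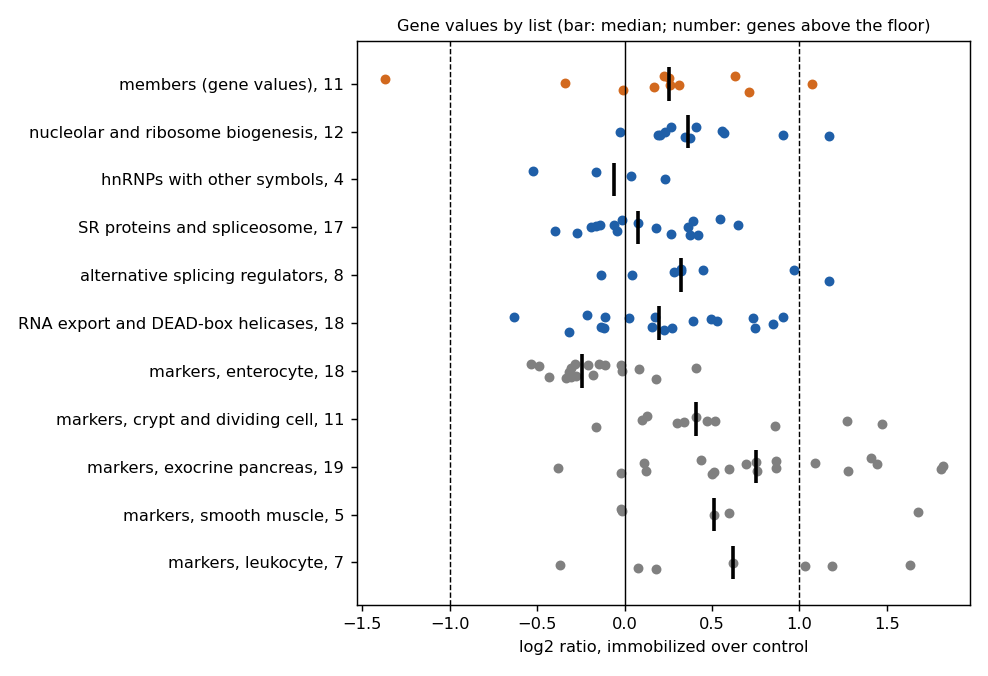
Log2 ratio of immobilized over control (horizontal axis) for each gene above the floor on both arrays, by list, with the number of genes beside the list name, a black bar at the median and dashed lines at 2-fold. The members (orange) spread from -1.37 to 1.07 around a median of 0.26, and the nucleolar list (blue) lies almost wholly above 0, while the marker lists (grey) range from an enterocyte median of -0.24 to a pancreas median of 0.75.

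Marker genes of the cell types in or near the mucosa also differed between the rats. Their summed signals, given for the control and then the immobilized rat, cover every listed gene on the array, whether or not it was above the floor, whereas counts and medians cover the genes above it in both rats. Markers of crypt and dividing cells were higher for 10 of 11 measured genes (median log2 ratio 0.41), and the summed signal of all 19 on the array was 2905 and 3811. Cdk4 (2.77-fold higher), Ccnb1 (2.42-fold) and Prim1 (1.81-fold) led them, and the stem cell markers Lgr5 and Ascl2 were below the floor on both arrays, as was Myc. Enterocyte markers were lower for 15 of 18, with a median of -0.24 and sums of 83138 and 72188. Under loess scaling and under quantile normalization 6 of the 18 were above 0 in place of 3, with a median of -0.10 in each, and with probe sets averaged 1 was, with a median of -0.31. Their lowest were Krt20, Mep1b and Slc5a1, at 1.45-fold, 1.40-fold and 1.35-fold lower. The enterocyte markers all had mean signals over 800, and the 501 genes of the array in that class had a median of -0.07. The bright beta-actin and GAPDH control probe sets of the array lay between -0.50 and -0.30.

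Exocrine pancreas markers were higher for 17 of 19, with a median of 0.75, sums over 20 genes of 14716.5 and 19888, and Ctrb1, Sycn and Clps highest at 3.53-fold, 3.51-fold and 2.72-fold. Zg16 was the largest single part of both sums and ran the other way, reading 6825 and 5248 (1.30-fold lower). Whether the Zg16 signal came from pancreas or from the mucosa was not tested, so the sums cannot be read as pancreas alone. Smooth muscle markers were higher for 3 of 5, with a median of 0.51 and sums over 8 genes of 457 and 753. Most of the difference in these sums came from 1 Acta2 probe set, at 90.3 and 289 (log2 ratio 1.68), whereas its other probe set gave -0.13. Myl9 gave -0.02 at its brightest probe set and 0.79 at the other. Leukocyte markers were higher for 6 of 7, with a median of 0.62 and sums over 13 genes of 3742 and 4824. That median was 0.08 with every probe set counted. Ccl5 (3.10-fold higher), Mcpt1 (2.28-fold) and Lyz2 (2.05-fold, 465 and 953) were the highest. Cd74 was the largest single part of both sums, reading 2776 and 3147. Cd4 ran the other way (log2 ratio -0.37), and the general leukocyte marker Ptprc exceeded the floor in the control rat alone (50.1 and 38.4). Of the 9 spike-in probe sets above the floor, which read control RNA added with the hybridization mix and not rat RNA, 7 were lower, with a median of -0.21. The part of these differences in the members' ratios was not tested.

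**Figure D4:**
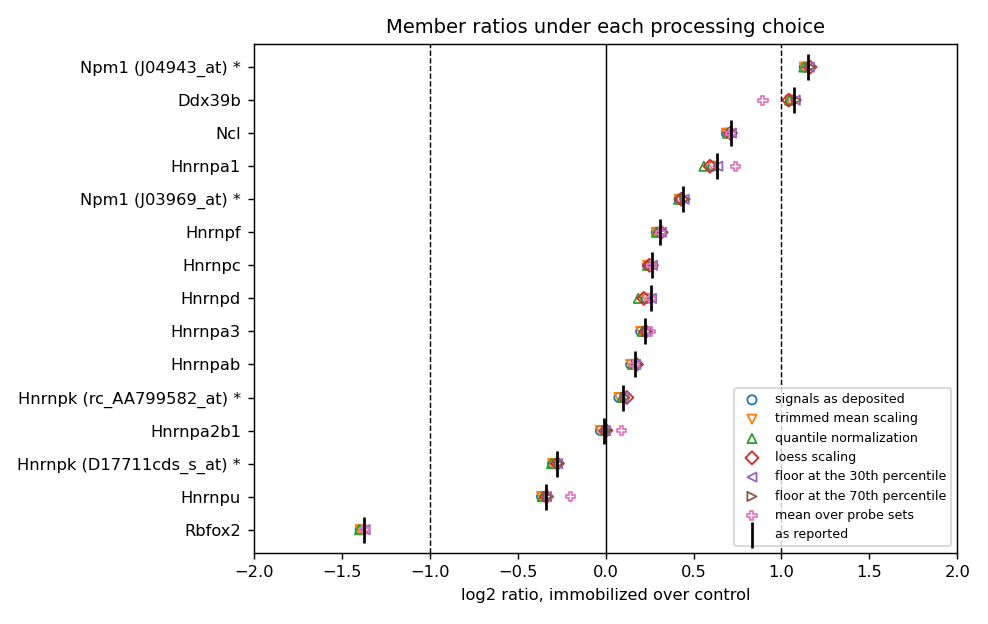
Log2 ratio of immobilized over control (horizontal axis) for each member gene, and for the 4 probe sets with shared annotation (asterisk), as reported (black bar) and under 7 other scalings, floors or probe set rules (open symbols), with dashed lines at 2-fold. Ddx39b moves from 1.07 to 0.89 with probe sets averaged. Rbfox2 has no symbol for loess scaling or the 70th percentile floor because its signal was then not above the floor. Hnrnpa1 and Hnrnpd have none for the 70th percentile floor for the same reason.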

How the data were processed

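Duodenal mucosa RNA of 1 control and 1 immobilized rat was measured on 1 array each. The authors deposited 1 linear signal intensity for each probe set, filtered and normalized in the manufacturer's software (version 4.0, per the design text). The submitters' processing notes name MAS5, so the signal algorithm is not settled. Detection calls were not used here, and the number of arrays limits the precision.

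Groups came from the sample titles. Symbols from the array annotation were updated through gene IDs with the RefSeq table (6994 probe sets). Array controls made up 59 probe sets, and 7006 of the others had 1 symbol, 308 several and 1426 none. Those with several were left out of gene values. Each gene was read from the brightest of its probe sets by mean signal (4736 genes). Scaling, floor and ratios are as given with the results, and where 1 array alone passed the floor, a bound was given, the signal over the floor. No test was made. The counting was tested on simulated data.

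The members and gene lists were chosen with earlier results of these data known. The genes named were all members and, per list, up to 3 per direction farthest from 0 and the largest bound per direction. For marker lists up to 3 were named, and others named beside them were chosen after their values were seen. Alternatives were loess scaling with a span of 0.3, quantile normalization, scaling by the 2% trimmed mean, unscaled signals, the 70th or 30th percentile as floor, probe sets averaged or counted singly, thresholds of 1.5-fold and 3-fold, and bounds counted. Counting the shared probe sets as Npm1 and Hnrnpk was added after seeing the data. Calculations used pandas 2.3.3 and numpy 2.4.6 in Python 3.11.15, loess came from statsmodels 0.14.6, and plots from matplotlib 3.10.9.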

Additional observations from a re-analysis of the deposited data

How the results depend on the processing

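No paired analysis was possible because each group holds 1 array and the labels give no replicate numbers, and for the same reason no replicate could be left out. The median log2 ratio of the member genes lay between 0.21 and 0.26 over the 10 settings in which it was computed. The 70th percentile floor left 8 of the 11 member genes, without Rbfox2, Hnrnpa1 and Hnrnpd. The number of member genes at least 2-fold higher, 1 as reported, was 0 with probe sets averaged, 2 with the shared probe sets counted as genes, 3 at a threshold of 1.5-fold and 0 at 3-fold. The number at least 2-fold lower, 1 as reported, was 0 at a threshold of 3-fold, 0 under loess scaling and 0 with a 70th percentile floor. In the last pair the Rbfox2 signal of the immobilized rat was not above the floor (40.03 against 40.08 under loess). Each scaling moved the median of all genes by under 0.1 on the log2 scale. Of the list medians, that of the nucleolar list was 1.18 under the 70th percentile floor, which leaves 1 gene, and that of the leukocyte markers was 0.20 with the floor at the 30th. No ratio could be given for the 7 member probe sets below the floor in both rats, and the spread between animals is unknown.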
